A study of Mus musculus with 4 samples.

Results

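The conjugating enzymes of phase 2 metabolism were followed in epithelial cells of the mouse colon during colitis. They were chosen by name, as the protein-coding genes of the glutathione S-transferase (Gst and Mgst), UDP-glucuronosyltransferase (Ugt1a, Ugt2a and Ugt2b) and cytosolic sulfotransferase (Sult) families, and 65 of the 31227 genes in the count table met this rule. RNA sequencing compared 2 libraries labelled Smad4 knockout (Smad4 KO, replicates 1 and 2) with 2 wild-type libraries (WT, replicates 1 and 3). All mice were 8 to 10 weeks old and were given dextran sulfate sodium (DSS), which damages the lining of the colon, at 3.5% in the drinking water for 5 days, then plain water, and were killed on day 7. A time label reads 5 days. Both genotypes had DSS, so the comparison shows how they differed under colitis and not what DSS did. The labels name no promoter or recombinase behind the deletion, and they do not say whether the libraries came from separate or pooled mice. The p-values are thus set by how far libraries of a genotype lie apart, and this spread may be technical.

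Phase 2 enzymes join a polar group to a drug, toxin, hormone or bile pigment so that it can leave the cell. Glutathione S-transferases use glutathione, UDP-glucuronosyltransferases use UDP-glucuronate, and sulfotransferases use the sulfate donor PAPS (3'-phosphoadenosine 5'-phosphosulfate). Nrf2, a transcription factor of the oxidative stress response, and ligand-activated receptors such as Ahr, the receptor for dioxin-like compounds, are known inducers of many of these genes, and the gut epithelium is an important place of conjugation outside the liver.

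The Smad4 KO libraries held 61260099 and 67927291 counts, and the WT libraries held 56018009 and 42577920. Levels are counts scaled to a common library size (CPM) and a count of 1 stood for 0.0150 to 0.0229 CPM. Smad4, the signal carrier of the TGF-β pathway that the knockout targets, had 51.5 and 41.1 CPM in the Smad4 KO libraries, against 152 and 180 CPM in the WT libraries (log2 fold change -1.84, edgeR adjusted p = 0.00163). Marker genes are counted as rises or falls at an edgeR adjusted p under 0.05. Over all tested genes 15.2% were called, 8.82% as rises and 6.40% as falls. Of 8 epithelial markers 4 rose and 1 fell, and their summed level was 16360 to 16880 CPM in Smad4 KO and 16020 to 16410 CPM in WT. Of 7 tested neutrophil markers 6 rose, and their summed level was 430 to 443 CPM in Smad4 KO and 104 to 130 CPM in WT, with Ly6g alone at 319 to 330 CPM in Smad4 KO and 93.3 to 116 CPM in WT and Mpo without a count. All 8 distal colon markers fell, with sums of 91.8 to 93.8 CPM in Smad4 KO and 985 to 1001 CPM in WT. Macrophage markers had 3 rises among 10 (183 to 189 CPM in Smad4 KO and 179 to 196 CPM in WT), fibroblast markers 2 among 9 (74.9 to 84.3 CPM in Smad4 KO and 44.8 to 50.1 CPM in WT), lymphocyte markers 1 among 7 (9.26 to 9.47 CPM in Smad4 KO and 3.28 to 5.57 CPM in WT) and endothelial markers 0 among 6 (8.15 to 9.03 CPM in Smad4 KO and 6.77 to 8.13 CPM in WT), with no fall in any of these lists. Median log2 fold changes of tested markers were 2.75 for neutrophils, 1.37 for macrophages, 0.79 for fibroblasts, 0.91 for lymphocytes and 0.78 for endothelium. The median over all tested genes was 0.01. The macrophage sums overlapped between the genotypes although the median macrophage marker was higher in Smad4 KO. Among the epithelial types, absorptive colonocyte markers had 6 rises and 4 falls among 10 (7480 to 7620 CPM in Smad4 KO and 5549 to 5558 CPM in WT), goblet markers 2 rises and 3 falls among 8 (25140 to 25170 CPM in Smad4 KO and 26070 to 26110 CPM in WT), enteroendocrine markers 3 rises and 3 falls among 9 (654 to 658 CPM in Smad4 KO and 440 to 497 CPM in WT) and tuft markers no call among 7 (40.1 to 41.3 CPM in Smad4 KO and 31.4 to 32.1 CPM in WT). Small intestine markers had 3 rises and 1 fall among 7 (478 to 482 CPM in Smad4 KO and 319 CPM in both WT libraries), with Apoa4 and Lct without a count. Median log2 fold changes were 0.24 for epithelial, -5.11 for distal colon, 0.52 for absorptive colonocyte and -0.01 for goblet markers. They were -0.33 for enteroendocrine, 0.32 for tuft and 0.58 for small intestine markers. The part of cell make-up and of the colon segment sampled in the results that follow was not tested, and in bulk RNA fewer cells of a type and less RNA per cell cannot be told apart.

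No count was seen in any library for 19 members, which were the estrogen sulfotransferase Sult1e1, all 8 members of the Sult2a group of hydroxysteroid sulfotransferases, Sult3a1, Sult3a2, Sult5a1, Gstt4, Ugt1a8, Ugt1a9, Ugt2a1, Ugt2a2, Ugt2a3 and Ugt2b37. A count of 0 allows up to 0.0450 to 0.0688 CPM, depending on the library, and this limit covers counting error only. Another 5 (Gsta2, Sult1c1, Sult6b2, Ugt1a5 and Ugt1a10) had at most 13 counts in a library and did not pass the filter on low counts, which left 41 members tested. Per kilobase of annotated exon, the microsomal glutathione transferase Mgst3 was highest with a mean of 298 CPM per kb in Smad4 KO and 243 CPM per kb in WT. Next came Gsto1, an omega-class enzyme that reduces dehydroascorbate, with 165 CPM per kb in Smad4 KO and 159 CPM per kb in WT. Gstp1, the pi-class enzyme, had 110 CPM per kb in Smad4 KO and 109 CPM per kb in WT. Lower down, the order of Ugt1a1, Ugt2b34 and Sult1a1 differed between the genotypes. In Smad4 KO the bilirubin-conjugating Ugt1a1 (85.6 CPM per kb) stood above Ugt2b34 (57.5) and the phenol sulfotransferase Sult1a1 (14.9). In WT, by contrast, Sult1a1 (112 CPM per kb) stood beside Gstp1 and above Ugt2b34 (79.5) and Ugt1a1 (39.5). Other members lay between these genes, such as Gstm1 with 43.7 CPM per kb in Smad4 KO and 60.3 CPM per kb in WT.

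**Figure D1:**
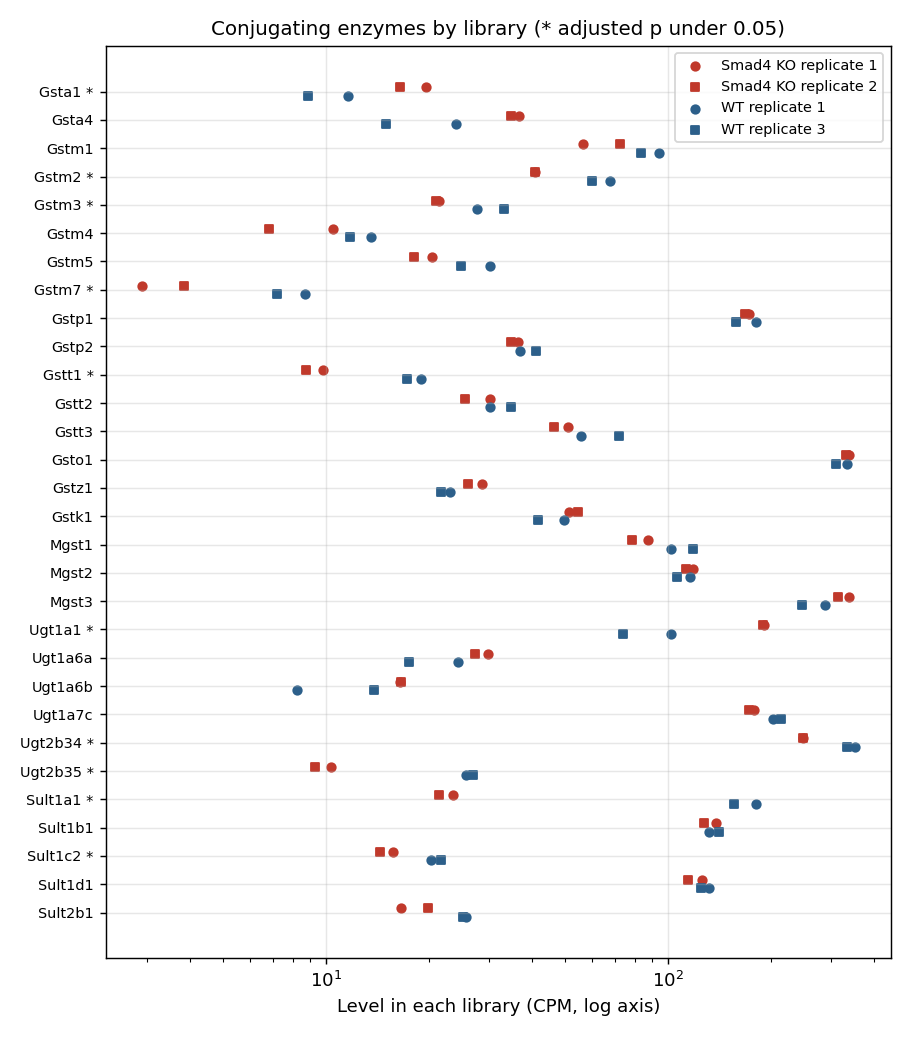
Level in each library (CPM, log axis) of the 30 conjugating enzymes that averaged at least 10 CPM or passed the test, with Smad4 KO in red drawn above WT in blue, circles for replicate 1 of either genotype and squares for the other replicate. Sult1a1 shows the widest gap, with 21.5 to 23.5 CPM in Smad4 KO and 156 to 181 CPM in WT, while the sets of points of Gstp1, Gsto1, Sult1b1 and Sult1d1 overlap.

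Of the 41 tested members 10 (24.4%) passed an edgeR adjusted p of 0.05, against 15.2% of all 15838 tested genes. There were 8 that fell (19.5%, against 6.40% of all tested genes) and 2 that rose (4.88%, against 8.82%). The libraries of the genotypes did not overlap for 31 of the 41 members (75.6%), against 59.4% of all tested genes. Log2 fold changes of Smad4 KO over WT were negative for 25 members and positive for 16, with a median of -0.25, where the median over all tested genes was 0.01. The sum over all members was 2493 and 2408 CPM in Smad4 KO, against 2760 and 2596 CPM in WT, so the total moved little (0.915-fold). Of the 10 calls, those of Sult1a1, Ugt1a1 and Ugt2b35 held whichever of the 4 libraries was left out.

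**Figure D2:**
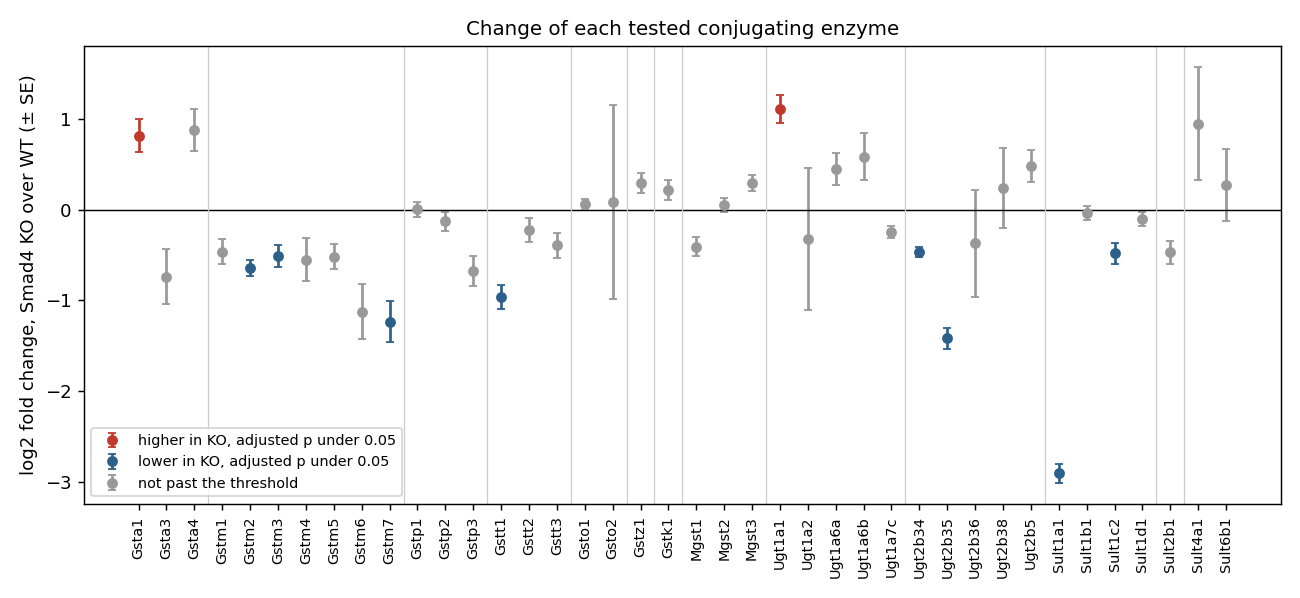
Log2 fold change of Smad4 KO over WT with its standard error for the tested conjugating enzymes, grouped by class, with red for members that rose, blue for members that fell and grey for the others. Ugt2b1, without a count in Smad4 KO, is not drawn. All 7 Gstm points lie below 0, between -1.24 and -0.47, and Sult1a1 is lowest at -2.91.

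Among the called members, a sulfotransferase had the largest change. Sult1a1, which sulfates phenols and many phenolic drugs, had 23.5 and 21.5 CPM in Smad4 KO, against 181 and 156 CPM in WT. Both Smad4 KO libraries lay far below both WT libraries. The means were 22.5 ± 1.44 CPM in Smad4 KO and 169 ± 17.3 CPM in WT (SD, n = 2 each), 7.5-fold lower in Smad4 KO (log2 fold change -2.91 with SE 0.106, edgeR adjusted p = 0.000229). It stayed between -3.01 and -2.81 whichever library was left out, with edgeR adjusted p at most 0.0036. The gene lies on the minus strand at chr7:126672865-126676432 (ENSMUSG00000030711, GRCm38). The 250 bases before its RefSeq start (chr7:126676419-126676668, minus strand, GRCm38.p6) are shown because this gene changed most among those called.
Sult1a1 upstream: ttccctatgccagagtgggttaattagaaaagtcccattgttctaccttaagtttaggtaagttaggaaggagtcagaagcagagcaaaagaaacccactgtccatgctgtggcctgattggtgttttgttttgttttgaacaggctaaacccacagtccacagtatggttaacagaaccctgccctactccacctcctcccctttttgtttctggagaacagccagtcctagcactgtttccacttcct
These bases held none of the 3 motifs searched, which are described at the end.

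The other expressed sulfotransferases had smaller differences. Sult1b1, which also acts on phenols and thyroid hormone, had 138 and 127 CPM in Smad4 KO, against 132 and 141 CPM in WT (log2 fold change -0.04, edgeR adjusted p = 0.788). Sult1d1, which sulfates catecholamines in mice, had 126 and 114 CPM in Smad4 KO, against 132 and 125 CPM in WT (-0.10, edgeR adjusted p = 0.465). The libraries of the genotypes overlapped for both genes. Sult1c2, another member of the phenol-sulfating family, had 15.7 and 14.4 CPM in Smad4 KO, against 20.2 and 21.6 CPM in WT, and fell 1.40-fold (log2 fold change -0.48 with SE 0.113, edgeR adjusted p = 0.0474). That call was lost whichever library was left out, with edgeR adjusted p of 0.156 without Smad4 KO replicate 1, 0.263 without Smad4 KO replicate 2, 0.0634 without WT replicate 1 and 0.115 without WT replicate 3. Sult2b1, a cholesterol sulfotransferase, had 16.6 and 19.9 CPM in Smad4 KO, against 25.6 and 25.1 CPM in WT. It lay lower in both Smad4 KO libraries without passing the test (-0.47, edgeR adjusted p = 0.068), and it passed with DESeq2. Sult4a1 and Sult6b1 stayed below 2 CPM in every library. Summed over the Sult1 class, the level was 303 and 277 CPM in Smad4 KO and 465 and 444 CPM in WT. Sult1a1 made up 7.75% of the class in each Smad4 KO library, against 38.9% and 35.2% in the WT libraries.

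In the Ugt1a locus each gene has its own first exon and all share the same last exons, so that the enzymes differ in the part that binds the substrate. Ugt1a1, which conjugates bilirubin, had 191 and 190 CPM in Smad4 KO, against 102 and 74.0 CPM in WT. Both Smad4 KO libraries were above both WT libraries, which themselves lay apart. The means were 190.5 ± 0.942 CPM in Smad4 KO and 87.9 ± 19.7 CPM in WT (SD, n = 2 each), a 2.17-fold rise (log2 fold change 1.11 with SE 0.155, edgeR adjusted p = 0.00983). The log2 fold change was 0.90 to 1.35 with a library left out, and edgeR adjusted p at most 0.0486. Ugt1a7c, a neighbour that handles phenols, pointed the other way with 178 and 172 CPM in Smad4 KO, against 203 and 214 CPM in WT, and did not pass the test (log2 fold change -0.25 with SE 0.0633, edgeR adjusted p = 0.0595). It passed without WT replicate 1 and in fits with library totals, DESeq2 or limma-voom. Ugt1a1 took up 45.9% and 46.7% of the Ugt1a counts in Smad4 KO, against 30.2% and 23.1% in WT, and Ugt1a7c 42.9% and 42.4% in Smad4 KO, against 60.1% and 66.9% in WT. The class sum was 417 and 406 CPM in Smad4 KO and 338 and 320 CPM in WT (1.25-fold).

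The genes start far apart, Ugt1a7c at chr1:88095062-88220002 and Ugt1a1 at chr1:88211959-88218997 (both plus strand, GRCm38). Their upstream bases are shown because they belong to the members of the locus with the most counts, whose log2 fold changes have opposite signs. The windows are chr1:88211709-88211958 for Ugt1a1 and chr1:88094751-88095000 for Ugt1a7c (plus strand, RefSeq, GRCm38.p6).
Ugt1a1 upstream: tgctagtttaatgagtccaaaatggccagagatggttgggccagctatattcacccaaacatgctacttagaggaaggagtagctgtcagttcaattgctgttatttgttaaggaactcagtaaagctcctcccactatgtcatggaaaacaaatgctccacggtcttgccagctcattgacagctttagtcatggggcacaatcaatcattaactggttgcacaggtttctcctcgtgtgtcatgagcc
Ugt1a7c upstream: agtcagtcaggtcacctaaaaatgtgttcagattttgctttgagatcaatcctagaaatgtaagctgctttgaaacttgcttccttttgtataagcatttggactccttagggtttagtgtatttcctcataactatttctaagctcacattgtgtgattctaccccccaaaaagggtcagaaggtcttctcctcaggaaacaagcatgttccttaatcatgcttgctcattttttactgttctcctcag
Neither held any of the 3 motifs. Of all 100-base windows of the transcripts, 57.2% of those of Ugt1a1 and 51.6% of those of Ugt1a7c also occur in another gene, so the split of counts within the locus rests on how the authors' counting assigned reads from the shared exons (not given in the sources used).

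The phenol-conjugating Ugt1a6a and Ugt1a6b are near copies, with 98.4% identical coding bases and the same first 90 (GENCODE M21 transcripts), which are shown because a read inside them matches both genes.
Ugt1a6a coding start: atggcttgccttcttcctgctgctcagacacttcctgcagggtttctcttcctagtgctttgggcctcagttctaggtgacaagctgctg
Ugt1a6b coding start: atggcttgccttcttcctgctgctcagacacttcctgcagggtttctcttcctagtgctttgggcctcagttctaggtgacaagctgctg
Ugt1a6a had 29.7 and 27.4 CPM in Smad4 KO, against 24.3 and 17.5 CPM in WT (log2 fold change 0.45, edgeR adjusted p = 0.166). Ugt1a6b had 16.4 and 16.6 CPM in Smad4 KO, against 8.21 and 13.8 CPM in WT (0.59, edgeR adjusted p = 0.202). With a library left out the log2 fold change ran from 0.23 to 0.69 for Ugt1a6a and from 0.24 to 1.01 for Ugt1a6b. The WT library that was higher for Ugt1a6a was lower for Ugt1a6b. Their sum was 46.2 and 43.9 CPM in Smad4 KO and 32.5 and 31.4 CPM in WT, 1.41-fold with libraries of a genotype close together. Ugt1a2 stayed below 0.5 CPM in every library.

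**Figure D3:**
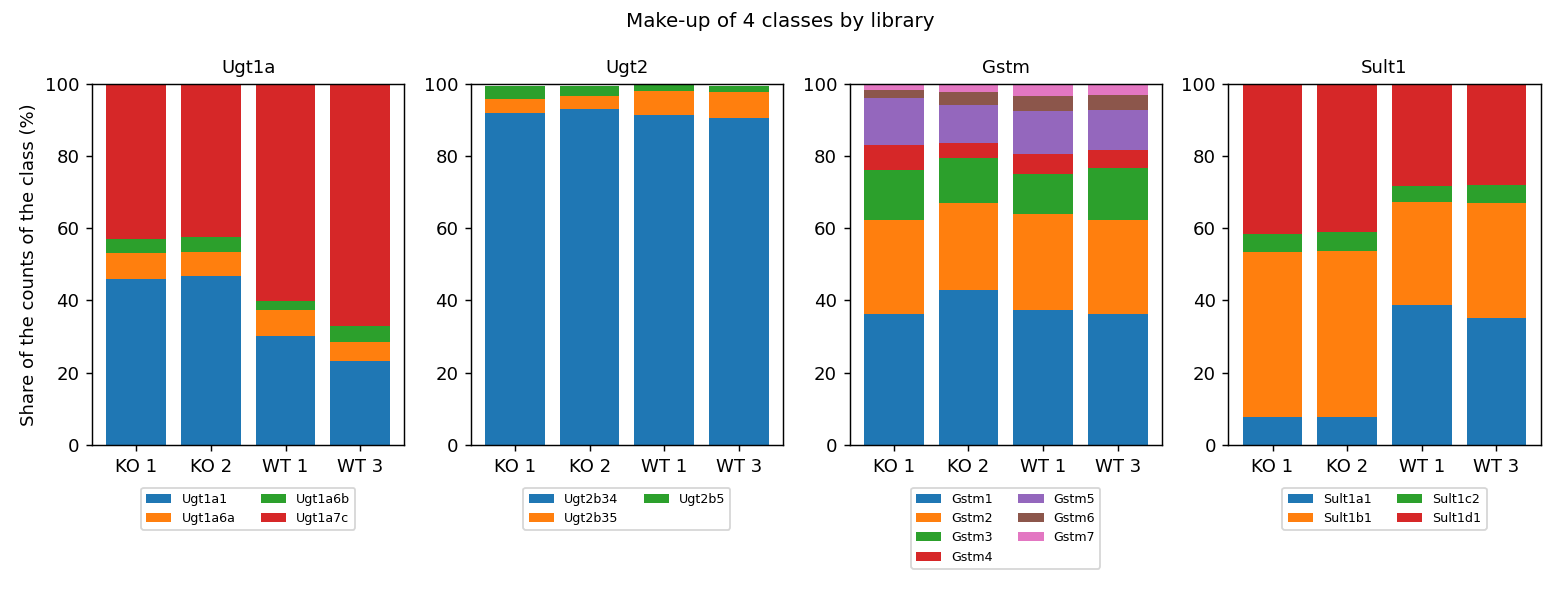
Share of the counts of 4 classes (Ugt1a, Ugt2, Gstm and Sult1, in %) held by each member in the Smad4 KO libraries (left bars) and the WT libraries (right bars), with members under 0.5% not drawn. Ugt1a1 takes 45.9 to 46.7% of Ugt1a counts in Smad4 KO and 23.1 to 30.2% in WT, Sult1a1 takes 7.75% of Sult1 counts in Smad4 KO and 35.2 to 38.9% in WT, and Ugt2b34 makes up nearly all of Ugt2 in every library.

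The Ugt2 class, whose enzymes conjugate steroids and bile acids among other substrates, had its calls as falls. Ugt2b34, the most abundant of the class, had 248 CPM in both Smad4 KO libraries, against 352 and 334 CPM in WT. All Smad4 KO values were lower, and the gene fell 1.38-fold (means 248 ± 0.296 CPM in Smad4 KO and 343 ± 12.9 CPM in WT, SD, n = 2 each, log2 fold change -0.47 with SE 0.0577, edgeR adjusted p = 0.00679). The call was lost without Smad4 KO replicate 1 (edgeR adjusted p = 0.067) and without Smad4 KO replicate 2 (0.0727), while the log2 fold change stayed at -0.46 and -0.47. Ugt2b35 had 10.4 and 9.29 CPM in Smad4 KO, against 25.7 and 26.9 CPM in WT. The genotypes were well separated, with a 2.68-fold fall (means 9.83 ± 0.757 CPM in Smad4 KO and 26.3 ± 0.863 CPM in WT, SD, n = 2 each, log2 fold change -1.42 with SE 0.117, edgeR adjusted p = 0.00192), and the call held whichever library was left out. Its transcript shares no 100-base window with another gene, and its upstream bases (chr5:87000610-87000859, plus strand, RefSeq, GRCm38.p6) are shown as those of the member of the class that fell most among those called.
Ugt2b35 upstream: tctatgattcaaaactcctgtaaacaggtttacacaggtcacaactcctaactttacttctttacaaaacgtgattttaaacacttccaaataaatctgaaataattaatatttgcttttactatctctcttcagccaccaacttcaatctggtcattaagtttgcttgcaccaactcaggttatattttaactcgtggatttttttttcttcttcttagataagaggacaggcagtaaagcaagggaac
They held none of the 3 motifs. Ugt2b5 had 9.63 and 7.73 CPM in Smad4 KO, against 6.26 and 6.15 CPM in WT, higher in Smad4 KO without passing the test (log2 fold change 0.48, edgeR adjusted p = 0.141). Of its 100-base windows 24.7% also occur in Ugt2b38 or Ugt2b37. Summed with these genes the level was 11.1 and 8.72 CPM in Smad4 KO and 7.14 and 7.38 CPM in WT (1.37-fold). Ugt2b1 had no count in either Smad4 KO library and 26 in the WT libraries together, at least 10.6-fold lower against a floor of 3 counts over the Smad4 KO group, and did not pass the test (edgeR adjusted p = 0.074), though it did with DESeq2 or limma-voom. Ugt2b36 and Ugt2b38 stayed below 2 CPM in every library. The class sum was 270 and 267 CPM in Smad4 KO and 386 and 369 CPM in WT (0.711-fold).

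The mu-class glutathione transferases (Gstm), which detoxify epoxides and other electrophiles, were lower in Smad4 KO throughout. All 7 Gstm genes of chromosome 3 had negative log2 fold changes and libraries that did not overlap between the genotypes, and 3 passed the test, where 59.4% of all tested genes did not overlap and 15.2% passed. Gstm2 had 40.8 CPM in both Smad4 KO libraries, against 67.7 and 59.8 CPM in WT, and fell 1.56-fold (log2 fold change -0.64 with SE 0.0926, edgeR adjusted p = 0.0108). Gstm3 had 21.5 and 21.03 CPM in Smad4 KO, against 27.7 and 33.0 CPM in WT, and fell 1.43-fold (-0.52 with SE 0.122, edgeR adjusted p = 0.0494). Of the 100-base windows of Gstm3, 13.8% also occur in other genes, Gstm1 and Gstm6 among them, so part of its counts is uncertain. Gstm7 had 2.89 and 3.84 CPM in Smad4 KO, against 8.67 and 7.20 CPM in WT, and fell 2.36-fold (-1.24 with SE 0.227, edgeR adjusted p = 0.0231). These calls rest on few libraries. Without Smad4 KO replicate 1 the edgeR adjusted p was 0.0871 for Gstm2, 0.196 for Gstm3 and 0.112 for Gstm7, and without Smad4 KO replicate 2 it was 0.0793, 0.227 and 0.0562 for the same genes. Gstm3 also lost its call without WT replicate 3 (0.104) and Gstm7 without WT replicate 1 (0.0605).

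The other Gstm genes showed the same direction without passing. Gstm1, the most abundant of the class per kilobase, had 56.3 and 72.3 CPM in Smad4 KO, against 94.1 and 83.5 CPM in WT (log2 fold change -0.47, edgeR adjusted p = 0.0882). Gstm5 had 20.4 and 18.1 CPM in Smad4 KO, against 30.2 and 24.9 CPM in WT (-0.52, edgeR adjusted p = 0.0674). Gstm4 had 10.5 and 6.79 CPM in Smad4 KO, against 13.6 and 11.7 CPM in WT (-0.55, edgeR adjusted p = 0.196). In each of them both Smad4 KO libraries lay below both WT libraries, as they did for Gstm6, the remaining gene (3.33 and 6.04 CPM in Smad4 KO, against 10.6 and 9.86 CPM in WT, edgeR adjusted p = 0.0681). Gstm6 passed without Smad4 KO replicate 2, without a low-count filter, and with DESeq2 or limma-voom, Gstm5 without WT replicate 3, with library totals and with DESeq2, and Gstm1 with DESeq2. The class sum was 156 and 169 CPM in Smad4 KO, against 253 and 230 CPM in WT (0.673-fold). The bases before the RefSeq start of Gstm2 (chr3:107986421-107986670, minus strand, GRCm38.p6) are shown because it had the smallest p of the class, with capitals for matches of CAGAC, the Smad-binding box, on either strand, 109 and 17 bases before the start.
Gstm2 upstream: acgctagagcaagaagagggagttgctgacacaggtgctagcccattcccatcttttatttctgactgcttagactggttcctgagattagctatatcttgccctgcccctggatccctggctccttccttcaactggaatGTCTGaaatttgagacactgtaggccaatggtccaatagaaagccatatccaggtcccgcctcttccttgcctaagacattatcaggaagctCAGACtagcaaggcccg
Such matches are common, as given at the end.

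**Figure D4:**
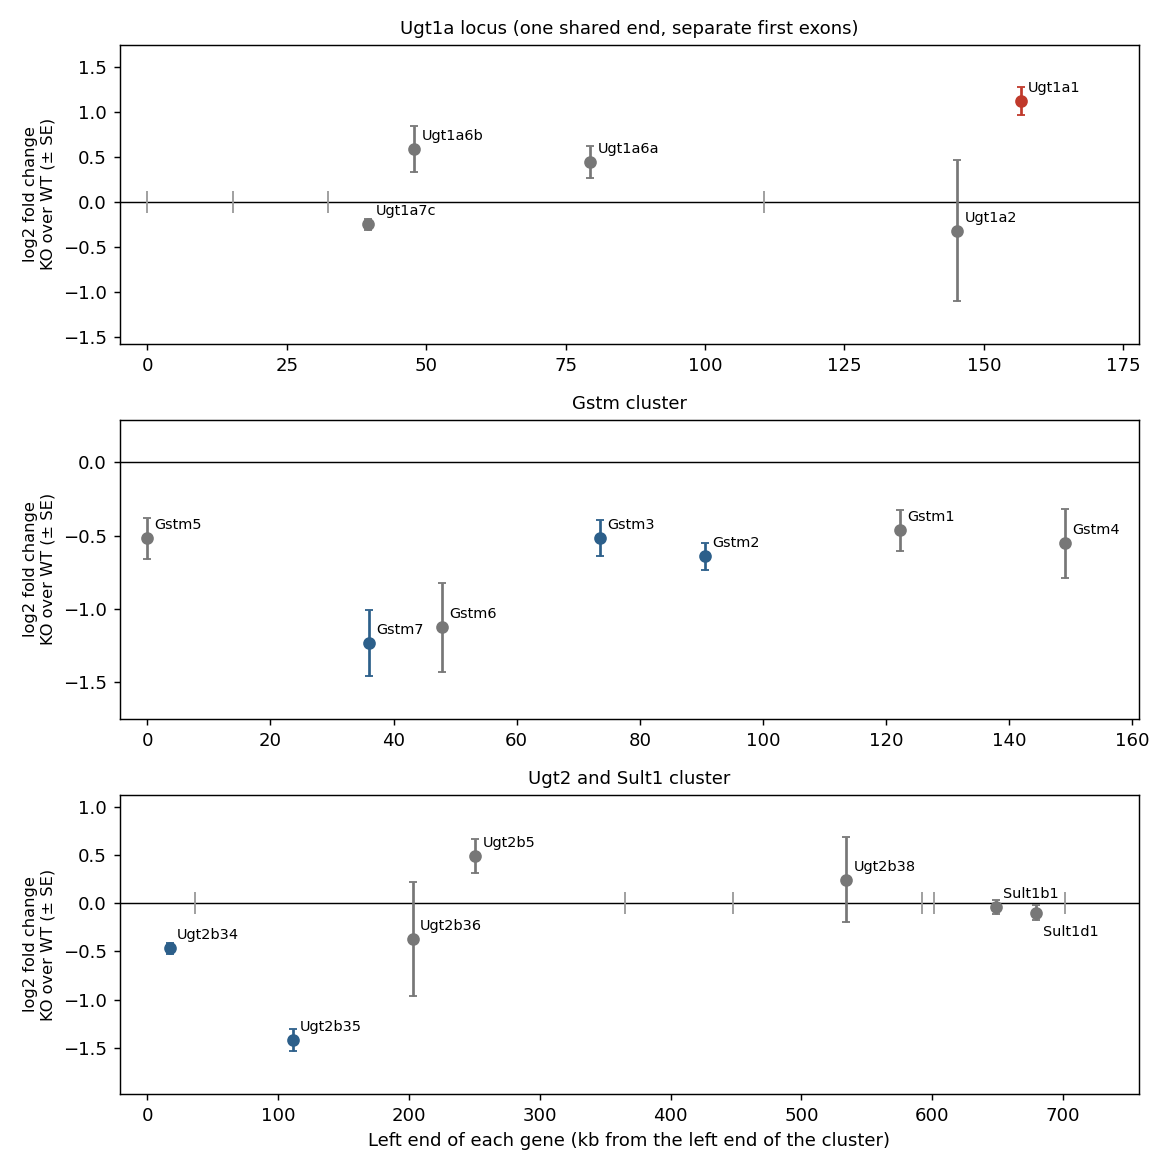
Log2 fold change of Smad4 KO over WT with its standard error (vertical axis) against the start of each gene (kb from the left end of the cluster). The panels are the Ugt1a locus, the Gstm cluster and the cluster of Ugt2 and Sult1 genes. Genes on the minus strand are drawn at their right end, where they start, although the axis title reads left end. Red marks rises, blue marks falls and grey points mark members that did not pass. Grey ticks mark members not tested or without a count in a genotype. Every Gstm point is below 0, whereas Ugt1a1 at 1.11 stands opposite Ugt1a7c at -0.25, and Ugt2b35 at -1.42 lies in the same cluster as Sult1b1 at -0.04.

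The alpha class (Gsta), known for conjugating products of lipid peroxidation, had higher levels in Smad4 KO for its more abundant genes. Gsta1 had 19.7 and 16.4 CPM in Smad4 KO, against 11.6 and 8.85 CPM in WT, and rose 1.76-fold (log2 fold change 0.82 with SE 0.182, edgeR adjusted p = 0.0417). Both Smad4 KO libraries were above both WT libraries, but the call was lost without Smad4 KO replicate 1 (edgeR adjusted p = 0.193), Smad4 KO replicate 2 (0.0959) or WT replicate 3 (0.0861). Of its 100-base windows 80.6% also occur in Gsta2 or the gene models Gm3776 and Gm10639, so its counts are uncertain. Summed with these copies the level was 28.8 and 25.4 CPM in Smad4 KO and 19.1 and 14.2 CPM in WT (1.63-fold). Gsta4, which conjugates 4-hydroxynonenal, had 36.7 and 34.8 CPM in Smad4 KO, against 24.0 and 14.9 CPM in WT. It lay higher in both Smad4 KO libraries and did not pass the test (log2 fold change 0.88 with SE 0.23, edgeR adjusted p = 0.0641). It passed without WT replicate 1, without WT replicate 3, without a low-count filter, and with DESeq2 or limma-voom. Gsta3 had 4.94 and 6.64 CPM in Smad4 KO, against 12.1 and 7.20 CPM in WT (-0.74, edgeR adjusted p = 0.179). It held 8.04% and 11.5% of the alpha-class counts in Smad4 KO, against 25.4% and 23.2% in WT.

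Among the theta class (Gstt), which acts on small halogenated compounds, Gstt1 had 9.80 and 8.72 CPM in Smad4 KO, against 19.0 and 17.2 CPM in WT. The libraries were well separated, and the gene fell 1.96-fold (means 9.26 ± 0.759 CPM in Smad4 KO and 18.1 ± 1.29 CPM in WT, SD, n = 2 each, log2 fold change -0.97 with SE 0.132, edgeR adjusted p = 0.00918). The call was lost without Smad4 KO replicate 2 (-0.89, edgeR adjusted p = 0.0699). Gstt2 had 30.2 and 25.5 CPM in Smad4 KO, against 30.2 and 34.8 CPM in WT (-0.22, edgeR adjusted p = 0.343). Gstt3 had 50.8 and 46.4 CPM in Smad4 KO, against 55.7 and 72.0 CPM in WT (-0.39, edgeR adjusted p = 0.135). With a library left out its log2 fold change ran from -0.58 to -0.19. Of the windows of Gstt3, 10.8% also occur in the overlapping gene model Gm20441, chosen here after its values were seen. Gm20441 had no count in either Smad4 KO library, against 538 and 221 counts in the WT libraries. Summed with it, Gstt3 stood at 50.8 and 46.4 CPM in Smad4 KO and 65.2 and 77.1 CPM in WT (0.684-fold), so the size of the difference at this gene depends on where those reads are put.

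Gsto1 and the main genes of the pi class had similar levels in both genotypes. Gsto1 had 338 and 332 CPM in Smad4 KO, against 334 and 309 CPM in WT (log2 fold change 0.06, edgeR adjusted p = 0.6). Gstp1 had 172 and 168 CPM in Smad4 KO, against 181 and 158 CPM in WT (0.01 with SE 0.0831, edgeR adjusted p = 0.973), a value so near 0 that its sign turned with other scalings or with a library left out. Its neighbour Gstp2 had 36.5 and 34.8 CPM in Smad4 KO, against 36.8 and 41.2 CPM in WT (-0.13, edgeR adjusted p = 0.46). Gstp1 and Gstp2 share 98.1% of their coding bases. The first 90 are shown to mark what can tell their reads apart, with capitals for the 6 bases that differ.
Gstp1 coding start: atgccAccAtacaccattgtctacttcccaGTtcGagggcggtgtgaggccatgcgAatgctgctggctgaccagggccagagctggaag
Gstp2 coding start: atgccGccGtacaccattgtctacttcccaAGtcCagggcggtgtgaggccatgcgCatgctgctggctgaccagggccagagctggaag
Their sum was 209 and 203 CPM in Smad4 KO and 218 and 199 CPM in WT. Gstp3 stood at 5.47 and 5.90 CPM in Smad4 KO, against 9.78 and 8.42 CPM in WT, below both WT libraries without passing the test (-0.68, edgeR adjusted p = 0.0532). It passed in 5 of the 7 other fits of all 4 libraries.

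Of the membrane-bound enzymes, Mgst1 had 87.5 and 78.6 CPM in Smad4 KO, against 102 and 118 CPM in WT (log2 fold change -0.41, edgeR adjusted p = 0.0573). Mgst2, which can make leukotriene C4, had 118 and 113 CPM in Smad4 KO, against 116 and 106 CPM in WT (0.05, edgeR adjusted p = 0.696). Mgst3 had 339 and 315 CPM in Smad4 KO, against 287 and 246 CPM in WT (0.29, edgeR adjusted p = 0.0994). Mgst1 was lower and Mgst3 higher in both Smad4 KO libraries, and Mgst2 overlapped. Mgst1 passed without WT replicate 1, with library totals, without a low-count filter, and with DESeq2 or limma-voom, and Mgst3 without WT replicate 1 and with DESeq2. Gstk1, an enzyme of mitochondria and peroxisomes, had 51.4 and 54.6 CPM in Smad4 KO, against 49.6 and 41.8 CPM in WT (0.21, edgeR adjusted p = 0.27). Gstz1, the maleylacetoacetate isomerase of tyrosine breakdown, had 28.6 and 26.1 CPM in Smad4 KO, against 23.0 and 21.6 CPM in WT (0.29, edgeR adjusted p = 0.14). Both were higher in Smad4 KO without passing the test. Gsto2 was below 2 CPM in every library.

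The cofactor supply of each family was read from gene lists. Over all tested genes 15.2% were called (8.82% higher and 6.40% lower) and the median log2 fold change was 0.01. For glutathione, 3 of 14 tested genes rose and 1 fell (28.6% called, median log2 fold change 0.03). Slc7a11, the cystine importer, had 12.8 and 14.7 CPM in Smad4 KO, against 4.27 and 3.85 CPM in WT (3.37-fold, log2 fold change 1.75, edgeR adjusted p = 0.00261). Its partner Slc3a2 had 86.3 and 88.4 CPM in Smad4 KO, against 63.5 and 50.6 CPM in WT (0.61, edgeR adjusted p = 0.0287). Ggt1, which breaks down extracellular glutathione, had 30.4 and 31.8 CPM in Smad4 KO, against 9.57 and 12.3 CPM in WT (2.85-fold, edgeR adjusted p = 0.00351). All of these were higher in both Smad4 KO libraries. Oplah, the 5-oxoprolinase of the glutathione cycle, fell with 20.7 and 22.1 CPM in Smad4 KO, against 30.6 and 34.6 CPM in WT (-0.61, edgeR adjusted p = 0.0235). The subunits of the rate-limiting enzyme of glutathione synthesis, Gclc (0.12, edgeR adjusted p = 0.359) and Gclm (0.02, edgeR adjusted p = 0.941), did not pass. They were named for their role outside the rule for named genes.

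For UDP-glucuronate, 2 of 6 genes rose and none fell (33.3% called, median log2 fold change 0.24). Pgm2, a phosphoglucomutase, had 132 and 128 CPM in Smad4 KO, against 90.03 and 95.1 CPM in WT (log2 fold change 0.49, edgeR adjusted p = 0.00988). Pgm1, another phosphoglucomutase, had 102 and 105 CPM in Smad4 KO, against 84.6 and 72.3 CPM in WT (0.40, edgeR adjusted p = 0.0485). The enzyme that makes UDP-glucuronate, Ugdh, had 224 and 211 CPM in Smad4 KO, against 202 and 210 CPM in WT (0.08, edgeR adjusted p = 0.489). Slc35d1, which carries UDP-glucuronate into the endoplasmic reticulum, was at 94.2 and 96.3 CPM in Smad4 KO, against 45.2 and 70.8 CPM in WT, and did not pass (edgeR adjusted p = 0.0831).

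For PAPS, 2 of 9 tested genes fell and none rose (22.2% called, median log2 fold change 0.14), a share not far from the 15.2% of all tested genes. Slc26a2, a sulfate transporter, had 711 and 693 CPM in Smad4 KO, against 1041 and 1117 CPM in WT (1.54-fold lower, log2 fold change -0.62, edgeR adjusted p = 0.00239). Papss1, a PAPS synthase, had 85.3 and 92.1 CPM in Smad4 KO, against 139 CPM in both WT libraries (1.57-fold lower, edgeR adjusted p = 0.0046). Both lay below WT in every Smad4 KO library. The other PAPS synthase, Papss2, had 373 and 346 CPM in Smad4 KO, against 309 and 315 CPM in WT (0.21, edgeR adjusted p = 0.0885). Bpnt1, which removes the spent cofactor, was at 85.8 and 87.8 CPM in Smad4 KO, against 79.0 and 70.0 CPM in WT (edgeR adjusted p = 0.156).

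Of 9 pumps that export conjugates, 2 rose and none fell (22.2% called, median log2 fold change 0.08), again a share not far from the 15.2% of all tested genes. Abcc5 had 25.3 and 25.6 CPM in Smad4 KO, against 9.22 and 10.9 CPM in WT (2.54-fold, log2 fold change 1.34, edgeR adjusted p = 0.00288). Abcg2, which exports sulfate conjugates, had 101 and 96.9 CPM in Smad4 KO, against 75.3 and 81.3 CPM in WT (0.34, edgeR adjusted p = 0.0406). Both were higher in every Smad4 KO library. Abcc3, which carries glucuronides, was at 328 and 324 CPM in Smad4 KO, against 370 and 377 CPM in WT, without passing (-0.20, edgeR adjusted p = 0.0651), and neither did Abcc1 (edgeR adjusted p = 0.0993). Of the 10 calls named in these supply and export lists, those of Slc7a11, Ggt1, Slc26a2, Papss1 and Abcc5 held whichever library was left out. The highest edgeR adjusted p with a library left out was 0.14 for Slc3a2, 0.146 for Oplah, 0.0809 for Pgm2, 0.23 for Pgm1 and 0.244 for Abcg2.

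**Figure D5:**
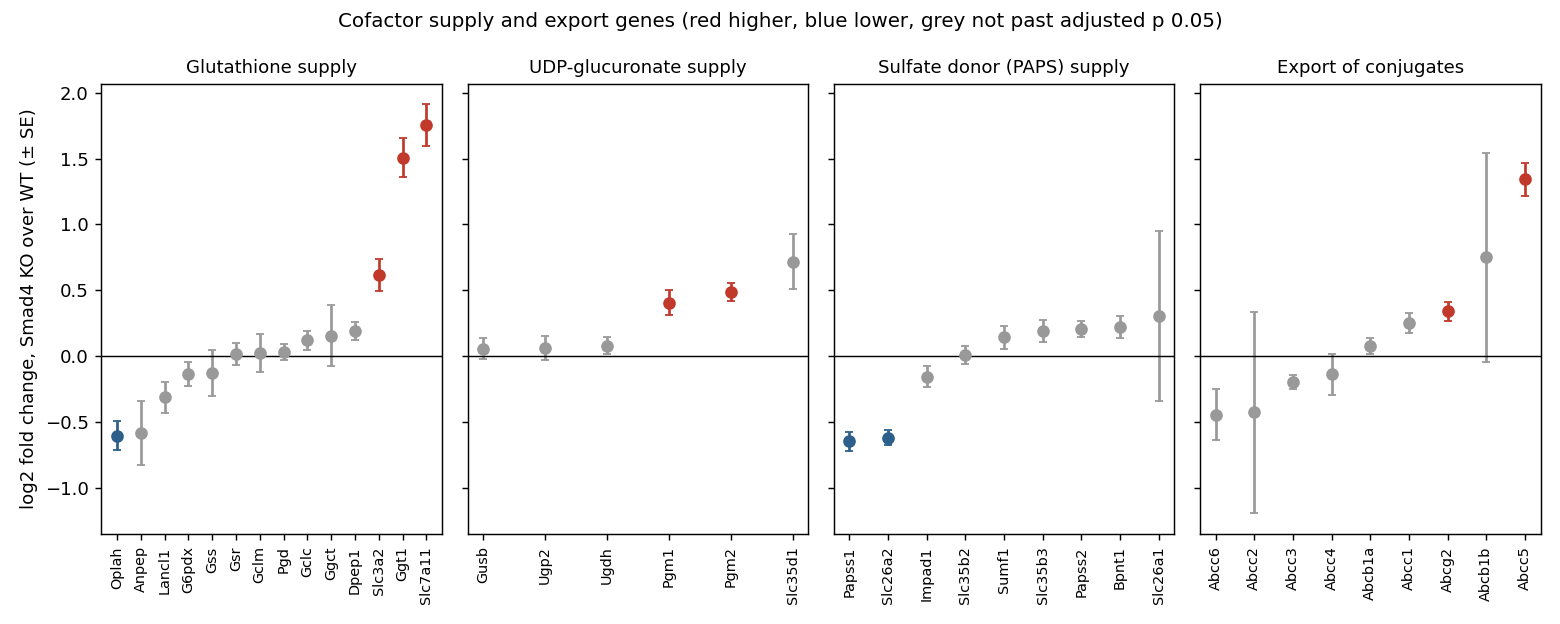
Log2 fold change of Smad4 KO over WT with its standard error for the tested genes of cofactor supply (glutathione, UDP-glucuronate, PAPS) and of conjugate export, with red for rises, blue for falls and grey for genes that did not pass. Slc7a11 at 1.75, Ggt1 at 1.51 and Abcc5 at 1.34 lie highest, and Papss1 at -0.65 and Slc26a2 at -0.62 lie lowest among the PAPS genes.

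Regulators of these enzymes were examined as 2 lists, which also hold other genes of the regulators' pathways. Of 19 tested genes of the Nrf2 pathway 6 rose and 1 fell (36.8% called, median log2 fold change 0.21, against 15.2% and 0.01 over all tested genes). The summed level of this list overlapped between the genotypes, with 2177 and 2233 CPM in Smad4 KO and 1934 and 2379 CPM in WT. Me1, malic enzyme, had 28.2 and 31.0 CPM in Smad4 KO, against 8.29 and 8.30 CPM in WT (3.57-fold, log2 fold change 1.84, edgeR adjusted p = 0.000782). Srxn1, sulfiredoxin, had 189 and 190 CPM in Smad4 KO, against 110 and 101 CPM in WT (0.84, edgeR adjusted p = 0.00212). The small Maf partners Mafk (0.48, edgeR adjusted p = 0.00918) and Maff (0.66, edgeR adjusted p = 0.0131) rose too, but lost their calls with a library left out, at edgeR adjusted p of up to 0.0848 and 0.101. Nfe2l2, which encodes Nrf2, had 174 and 171 CPM in Smad4 KO, against 155 and 169 CPM in WT (0.09, edgeR adjusted p = 0.465), a gene named for its role outside the rule.

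Of 13 tested xenobiotic receptors and related factors, 4 rose and 2 fell (46.2% called, median log2 fold change -0.02). Vdr, the vitamin D receptor, had 238 and 244 CPM in Smad4 KO, against 373 and 380 CPM in WT (1.56-fold lower, log2 fold change -0.64, edgeR adjusted p = 0.00205). Nr1h4, the bile acid receptor FXR, had 117 and 112 CPM in Smad4 KO, against 68.6 and 71.4 CPM in WT (0.71, edgeR adjusted p = 0.00312). Cdx2, an intestinal transcription factor, had 249 and 269 CPM in Smad4 KO, against 170 and 176 CPM in WT (0.58, edgeR adjusted p = 0.00558). Their libraries did not overlap between the genotypes. Tiparp, a target of Ahr, rose with 29.5 CPM in both Smad4 KO libraries, against 20.1 and 19.6 CPM in WT (0.57, edgeR adjusted p = 0.0177). The calls of Vdr and Nr1h4 held with any library left out, and those of Cdx2 (edgeR adjusted p up to 0.053) and Tiparp (up to 0.122) did not.

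Other conjugating enzymes and proteins of glutathione transferase fold showed 2 rises and 2 falls among 20 tested genes (20% called, against 15.2% of all tested genes, median log2 fold change 0.08), with Ugt3a1, Ugt3a2, Inmt, Nat1 and Nat3 without a count. Clic5, a chloride channel protein of this fold, had 208 CPM in both Smad4 KO libraries, against 308 and 314 CPM in WT (log2 fold change -0.58, edgeR adjusted p = 0.00289). Clic1, of the same family, had 343 and 346 CPM in Smad4 KO, against 281 CPM in both WT libraries (0.30, edgeR adjusted p = 0.0207). As3mt, the arsenic methyltransferase, had 27.3 and 26.5 CPM in Smad4 KO, against 44.2 and 44.3 CPM in WT (-0.72, edgeR adjusted p = 0.00682). Within each of these the libraries of a genotype lay close together. Alox5ap, a membrane protein related to the microsomal glutathione transferases that serves leukotriene synthesis in myeloid cells, had 4.77 and 4.56 CPM in Smad4 KO, against 2.08 and 2.02 CPM in WT (1.19, edgeR adjusted p = 0.0237), and it moved alongside the neutrophil markers given above, whose part in it was not tested. With a library left out, edgeR adjusted p reached 0.178 for Clic1, 0.061 for As3mt and 0.139 for Alox5ap. For comparison, cytochrome P450 genes of families 1 to 4, which include enzymes of the oxidizing phase of the same metabolism, were examined. Of the 34 that were tested 7 rose and 7 fell (41.2% called, against 15.2% of all tested genes). No gene of family 1 was among those tested.

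Promoter windows from RefSeq (250 bases before to 50 after a start, GRCm38.p6) were found for 58 of the 65 members, 70 windows in all. They were searched on both strands for TGACNNNGC, the core of the antioxidant response element bound by Nrf2, for GCGTG, the core of the xenobiotic response element bound by Ahr, and for CAGAC, the Smad-binding box. TGACNNNGC was in 4 member windows (5.71%), those of Gsta3, Gstm5, Gstm7 and Mgst1, against 12.4% of the 32851 windows of all genes. GCGTG was in 14 member windows (20%), against 32.4% of all windows. CAGAC was in 36 member windows (51.4%), against 49.6% of all windows. A match is a description of letters and not a bound site. Gsta4, Gstt2, Sult2a1, Sult2a2, Sult2a7, Sult4a1 and Ugt1a6b had no window in the table.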

How the data were processed

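RNA was sequenced from colonic epithelial cells in 4 libraries (2 Smad4 KO, 2 WT). Per the labels' protocols, 1.5 µg of total RNA went into each library and cDNA was primed with random hexamers. The authors deposited raw whole-number counts for 31227 Ensembl genes. Per the submitters' processing notes, the tools named are HISAT2 2.1.0, StringTie 1.3.3b, SAMtools 1.9 and FastQC (0.19.7 in the notes) on GRCm38 (mm10), with no order given. Not given in the sources used here are the counting tool, annotation release, read length, strand and handling of multi-mapped reads. Counts of near copies, overlapping genes and antisense partners are therefore uncertain.

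Symbols, positions and exon lengths came from GENCODE M21. The members, gene lists and tests were chosen with earlier results of these data known. edgeR's filterByExpr kept 15838 genes, which were scaled by TMM and tested by the quasi-likelihood F test (edgeR 4.0.16, R 4.3.3) with Benjamini-Hochberg adjustment over all of them and a threshold of 0.05. The fit was also run on simulated counts with known changes, drawn with the means and spread fitted to these same libraries. Such a run cannot check whether that spread is right. Replicates were not the same library deposited again, since over genes with at least 20 counts the chi-square between the pair averaged 32.6 in Smad4 KO and 39.8 in WT, and counting noise alone would give about 1. Each SE was worked back from the F test, as the size of the log2 fold change divided by the square root of F. It is therefore not an estimate of spread apart from the p-value. A bound uses a floor of 3 counts over a genotype. Values in every library are given for members with adjusted p under 0.05 or a mean of at least 10 CPM, and from each list of related genes for up to 4 with the smallest p. Other named genes were picked after their values were seen. Identity was computed on coding sequences in place of proteins, which were not used here, and the CAGAC motif was added after the data were seen.

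Alternatives were DESeq2 size factors, upper-quartile factors or library totals, no low-count filter, 1 CPM in 2 libraries as the filter, DESeq2 1.42.0, limma-voom (limma 3.58.1) and leaving out each library.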

Additional observations from a re-analysis of the deposited data

How the results depend on the processing

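With 2 libraries per genotype the calls depend on the spread between them, and depth limits what can be said of the 7 tested members below 2 CPM in every library. No paired analysis was possible because the genotypes share only the replicate number 1. All 10 member calls were kept with upper-quartile factors, library totals, either other filter, DESeq2 and limma-voom, and 9 with DESeq2 size factors, where Gstm3 was lost. Other settings called more falls, 16 with DESeq2 and 13 with limma-voom against 8, and DESeq2 called 4 rises against 2. With a library left out, members that rose numbered 1 to 5 and members that fell 3 to 9. The number called was 975 to 2573 over all genes, 10 to 30 against 27 in the lists of supply, export, regulators and other conjugation, and 9 to 15 against 14 in the cytochrome P450 families. Leaving out Smad4 KO replicate 1 (978 genes, 4 members) or replicate 2 (975 genes, 4 members) cost most calls; the lone library of a genotype is then assumed to vary like the other group, and the cause was not tested. Of the 10 calls, 8 were kept without WT replicate 1, 7 without WT replicate 3, 4 without Smad4 KO replicate 1 and 3 without Smad4 KO replicate 2.

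Among the 30 members with a call or a mean of at least 10 CPM, the sign changed for Gstp1, Mgst2 and Sult1b1, which were near 0 and not called. The log2 fold change of Gstp1 was 0.01 in the reported fit and -0.0017 with DESeq2 size factors, -0.046 with library totals, -0.0019 with DESeq2, and with a library left out it ran between -0.085 (without WT replicate 3) and 0.092 (without WT replicate 1), with -0.0057 without Smad4 KO replicate 1. With a library left out Mgst2 ran between -0.0041 (without WT replicate 3) and 0.10 (without WT replicate 1), and Sult1b1 between -0.099 (without WT replicate 1) and 0.021 (without Smad4 KO replicate 2), with 0.011 without WT replicate 3.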
